A study of Mus musculus with 3 samples.

Results

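Dopaminergic neurons (DNs) of the midbrain ventral tegmental area (VTA) carried accessible chromatin in the introns of protein-coding genes, and the peaks described here are the intronic ones that lie close to a transcript start without being at it. A peak was included when its centre fell inside the body of a protein-coding gene, in no exon, and between 1 and 50 kb from the nearest start of a protein-coding transcript, by the basic GENCODE M21 annotation on mm10. The rule uses position alone. Of 55326 peaks in the DN list, 54570 are on the 19 autosomes, and 14216 of these met the rule, which is 26.1% of the autosomal peaks (95% exact binomial interval 25.7 to 26.4%). They are called proximal intronic peaks below, although most of them are farther than 10 kb from a start, with a median distance of 12.9 kb and quartiles of 4.42 and 26.0 kb.

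The peaks come from single-nucleus ATAC-seq (snATAC-seq), in which a transposase cuts open chromatin inside isolated nuclei and a barcode keeps track of each nucleus. Both DN libraries were made from frozen VTA tissue of wild-type male C57Bl/6Nl mice, aged 7 weeks for DN 1 and 9 weeks for DN 2, with no treatment named. The DN nuclei are a cluster that the authors chose by the gene scores of *Th* and other DN markers, and the 2 libraries were pooled into 1 list of positions. Bulk ATAC-seq of mouse embryonic stem cells in the same series was not analysed here.

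Because the list holds no score, count or height per peak and does not separate the libraries, the values below carry no replicate error, and p-values were not computed. The 95% intervals cover counting error only, and they treat neighbouring peaks as independent. The depth per peak is unknown from the list, so that a stretch without a peak is one where the list holds none, and weaker accessibility there was not detectable. The study's motif analysis kept only peaks found in more than a set share of nuclei, and whether the list was filtered in this way is not given in the sources used here.

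Introns hold many of the enhancers of the mouse genome. An enhancer binds transcription factors and acts on a promoter at a distance, often on the promoter of the gene it lies in. Stretches just downstream of a start can also hold alternative promoters, and Ctcf, a zinc-finger protein that anchors chromatin loops together with cohesin, binds in introns as well as between genes. DNs are known by their genes for dopamine synthesis and transport and by the transcription factors that keep the identity of these cells.

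For 8 genes of the dopamine phenotype, the sequence of the proximal intronic peak nearest to a start of the gene is shown, since these peaks lie within genes that DNs are known for. Each run is the central 100 bp of a 500-bp peak, read 5′ to 3′ on the plus strand of GRCm38, the assembly that mm10 is. Capitals mark matches to any of 20 short transcription factor motifs that are spelled out with their shares further on. The runs lie at chr7:142901235-142901334 for *Th*, chr11:11888856-11888955 for *Ddc*, chr13:73575606-73575705 for *Slc6a3* and chr19:59263307-59263406 for *Slc18a2*. Those of *Gch1*, *Aldh1a1*, *Drd2* and *Ret* lie at chr14:47162851-47162950, chr19:20589430-20589529, chr9:49345657-49345756 and chr6:118195235-118195334. All 8 are intronic by the annotation.
Th: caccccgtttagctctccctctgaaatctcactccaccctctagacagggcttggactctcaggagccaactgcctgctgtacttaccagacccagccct
Ddc: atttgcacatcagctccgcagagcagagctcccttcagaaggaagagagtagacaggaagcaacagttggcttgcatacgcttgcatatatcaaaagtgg
Slc6a3: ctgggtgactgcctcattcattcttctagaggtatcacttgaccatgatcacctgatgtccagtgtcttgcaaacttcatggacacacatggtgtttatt
Slc18a2: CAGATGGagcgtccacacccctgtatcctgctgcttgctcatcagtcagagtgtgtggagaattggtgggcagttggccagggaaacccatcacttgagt
Gch1: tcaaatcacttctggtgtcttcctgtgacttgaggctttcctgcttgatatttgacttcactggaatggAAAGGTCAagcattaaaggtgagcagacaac
Aldh1a1: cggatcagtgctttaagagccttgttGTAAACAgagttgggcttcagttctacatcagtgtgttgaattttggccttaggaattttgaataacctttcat
Drd2: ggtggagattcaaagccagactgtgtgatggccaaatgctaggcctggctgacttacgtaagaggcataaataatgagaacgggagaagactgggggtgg
Ret: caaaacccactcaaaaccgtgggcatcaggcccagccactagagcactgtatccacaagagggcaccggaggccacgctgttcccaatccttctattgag
The peak in *Slc18a2* held a *Neurod* E-box at the edge of the printed part, that in *Gch1* an Nr4a motif and that in *Aldh1a1* a forkhead motif on the minus strand, and the other 5 runs held none of the motifs searched.

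The peak with the most different motifs is shown next because Ctcf, AP-1 and CREB words occur together in it. It lies in an intron of *Ano10*, which encodes a membrane protein of the anoctamin family, at chr9:122265708-122266207, 28.4 kb from the nearest start. Within its 500 bp it matched 7 of the 20 motifs, and it was the only proximal intronic peak with that many among those available for printing. The run below is chr9:122265808-122266107, 300 bp, in which the capitals mark an AP-1 motif, a Ctcf motif with a *Neurod* E-box inside it, and a CREB motif.
Ano10: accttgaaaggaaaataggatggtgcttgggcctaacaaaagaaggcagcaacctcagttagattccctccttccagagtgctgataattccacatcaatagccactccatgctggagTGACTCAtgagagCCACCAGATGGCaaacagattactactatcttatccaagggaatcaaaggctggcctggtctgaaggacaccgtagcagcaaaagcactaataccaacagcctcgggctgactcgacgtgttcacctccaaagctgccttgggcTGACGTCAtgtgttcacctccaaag

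Before the peaks were described, the label of the nuclei was set against marker genes. A peak centre lay within 1 kb of a start of 15 of 16 dopamine phenotype genes and of all 15 autosomal midbrain DN transcription factor genes on the lists used. Over all genes with eligible sequence it was 11324 of 18857, and on the lists of synaptic adhesion, channel and receptor genes 21 of 21, 21 of 21 and 24 of 24, so that the count is not particular to DN markers. *Th*, which encodes the rate-limiting enzyme of dopamine synthesis, *Slc6a3*, which encodes the dopamine transporter, and the factor genes *Lmx1b*, *Foxa1*, *Foxa2* and *Pitx3* were among the marker genes with such a peak. A peak lay at a start of 3 of 9 oligodendrocyte genes, 2 of 10 astrocyte genes and 1 of 10 microglia genes among those that have eligible sequence. These were *Cnp*, *Enpp2* and *Pdgfra*, then *Aldoc* and *Slc1a2*, and *C1qa*. *Sox10*, *Mog*, *Gfap*, *P2ry12* and *Tmem119* had neither a peak at a start nor a proximal intronic peak. Other glial genes did hold proximal intronic peaks, among them *Slc1a2* with 7, *Aldh1l1* with 5 and *Cx3cr1* with 2. Since gene scores of DN markers chose the cluster, accessibility of marker genes is partly given by that choice.

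The genes of dopamine synthesis, storage and signalling held many proximal intronic peaks. Of 16 genes on the list, 13 held at least 1 and together they held 68, or 92.1 per Mb of eligible sequence, meaning sequence that meets the same positional rule. Over all 18857 autosomal protein-coding genes with eligible sequence, 5899 (31.3%) held at least 1, at 27.3 per Mb. The median number per gene was 1 on the list and 0 over all genes. The listed genes also had more eligible sequence, with a median of 35.6 kb against 16.1 kb, and 15 of them had a peak at a start. Among all genes that share both features, with 20 to 50 kb of eligible sequence and a peak at a start, 45.0% held a proximal intronic peak.

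*Kcnj6*, which encodes a potassium channel that dopamine receptors open through G proteins, held the most of the list, 16 peaks. Of these, 5 lay from 1.66 to 40.4 kb downstream of the outer start and 11 from 111.2 to 185.0 kb, around internal starts at which no peak was called. Introns of *Kcnj6* more than 50 kb from any start do not meet the rule, and the gene held 9 deep intronic peaks. *Ddc*, which encodes the enzyme that makes dopamine from its precursor, held 15 peaks from 4.79 to 77.7 kb downstream of its outer start. For 7 of those 15 the nearest start belonged to another gene.

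*Th* held 9 proximal intronic peaks. All of them lay downstream of the outer annotated start, from 11.7 to 36.8 kb, and the nearest of them to any start of *Th* was 1.27 kb from an internal start. The internal starts nearest to 6 of the 9 had a peak, whereas the outer start, which was nearest to the other 3, had none. *Slc18a2*, which encodes the vesicular monoamine transporter, held 7 peaks from 2.46 to 30.2 kb downstream of its outer start, and *Drd2*, which encodes the D2 dopamine autoreceptor, also held 7, from 5.08 to 46.4 kb. *Ret*, which encodes a receptor for neurotrophic factors of the Gdnf family, held 6, from 2.43 to 42.2 kb.

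*Slc6a3* held only 1 proximal intronic peak in 37.6 kb of eligible sequence, near its distal end at 38.9 kb downstream of the start and nearer to the start of another gene. *Aldh1a1*, *Gch1*, *Sncg*, *Chrna6* and *Gucy2c* also held 1 peak each, and *Chrnb3*, which encodes a subunit of the nicotinic acetylcholine receptor, held 2. No proximal intronic peak was called in *Pts* or *Slc10a4*, which have 5.01 and 3.72 kb of eligible sequence.

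The midbrain transcription factor genes held 38 proximal intronic peaks in 8 of 15 genes (53.3%), at 87.9 per Mb of eligible sequence, against 31.3% and 27.3 per Mb over all genes. All 15 had a peak at a start, and their median eligible sequence was 15.1 kb. Over all genes with a peak at a start and 10 to 20 kb of eligible sequence, 32.5% held a proximal intronic peak, at 42.1 per Mb. *Lmx1b*, a LIM homeodomain factor gene, held 10, all in intron 2, with centres from 2.66 to 45.0 kb downstream of the start. A further 15 peaks lay deeper in the same gene. *Ebf3* held 9. *Nr4a2*, which encodes the orphan nuclear receptor Nurr1 that DNs need, held 4 in 9.45 kb, of which 3 lay between 1.19 and 2.55 kb of a start. *Satb1* held 3, *En1* held 2, and *Foxa1* and *Lmx1a* held 1 each. None was called in *En2*, *Foxa2*, *Nr4a1*, *Otx2*, *Pitx3*, *Pbx3* or *Bnc2*, and the last 2 held 4 and 2 deep intronic peaks instead.

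**Figure D1:**
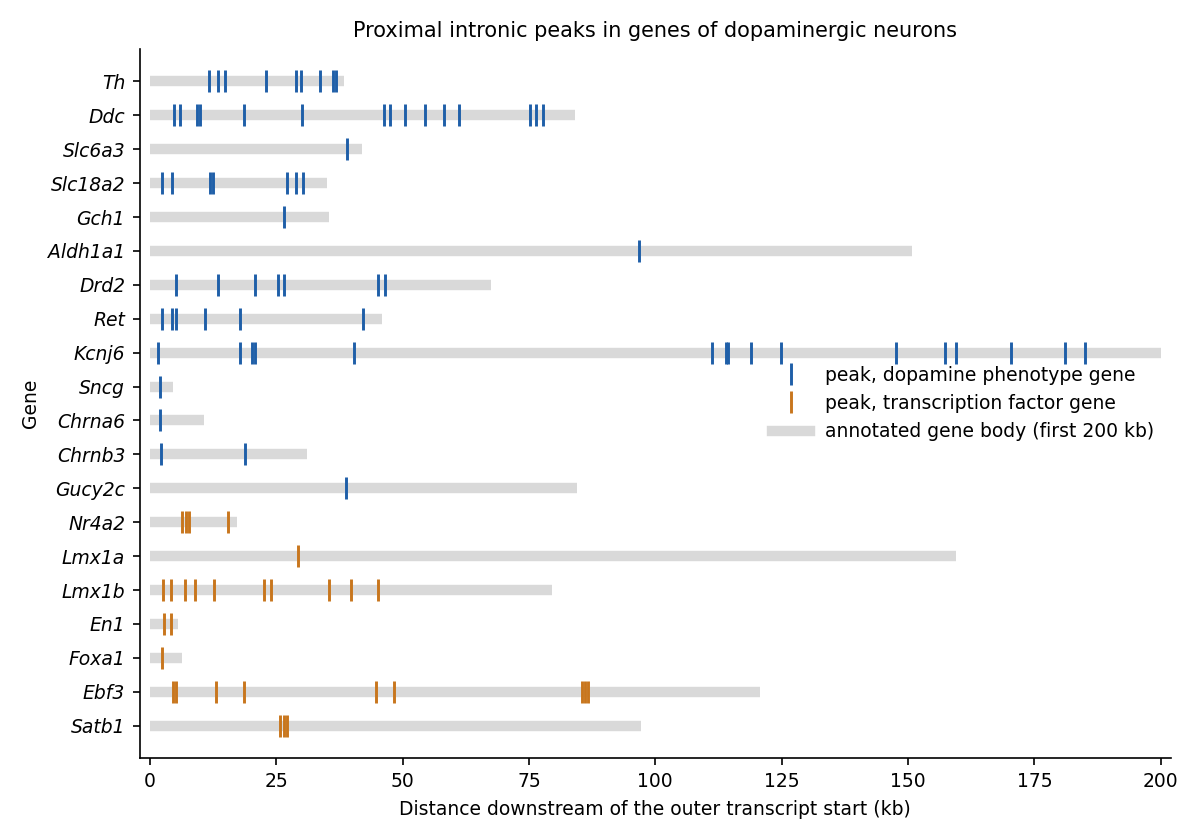
Rows are genes of the dopamine phenotype list (blue) or of the midbrain transcription factor list (orange) that held a proximal intronic peak, with 1 gene not shown, each tick is the centre of such a peak, and grey bars show the annotated gene up to 200 kb, by distance in kb downstream of the outer protein-coding start. *Kcnj6* has 16 ticks, *Ddc* 15, *Lmx1b* 10 and *Th* 9, and deep intronic peaks, such as 9 in *Kcnj6* and 15 in *Lmx1b*, are not drawn.

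Across the genome, proximal intronic peaks were denser than deep intronic and intergenic peaks and sparser than exonic and promoter peaks. They reached 27.3 peaks per Mb of eligible sequence (95% exact Poisson interval 26.8 to 27.7), against 16.7 per Mb (16.3 to 17.1) for deep intronic peaks, those more than 50 kb from a start, and 17.8 per Mb (17.4 to 18.2) for intergenic peaks 1 to 50 kb from a start. The ratio was 1.63 (1.58 to 1.68) to deep introns and 1.54 (1.49 to 1.58) to near intergenic sequence. Promoter peaks, within 1 kb of a start, were far denser at 317.9 per Mb, exonic peaks reached 45.8 per Mb (44.4 to 47.2), and intergenic peaks beyond 50 kb were sparser at 6.05 per Mb. The eligible introns made up 21.2% of the autosomal sequence and held 26.1% of the peaks.

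Proximal intronic peaks were denser than near intergenic peaks on 19 of 19 autosomes and denser than deep intronic peaks on 18 of 19, the exception being chromosome 18 with a ratio of 0.916. Their density ran from 15.2 per Mb on chromosome 3 to 37.1 per Mb on chromosome 11. Chromosomes 4, 5, 7, 8, 15 and 17 were also above 30 per Mb, and chromosomes 13 and 18 below 20. Soft-masked repeats took up 28.8% of the eligible introns, 28.2% of deep introns and 38.8% of near intergenic sequence. Per Mb of unmasked sequence, the ratio to deep introns was 1.65 (1.60 to 1.70) and the ratio to near intergenic sequence was 1.32 (1.28 to 1.36). The eligible introns were 43.5% G and C, and deep introns 41.2%. What part base composition and repeats have in the difference was not tested.

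**Figure D2:**
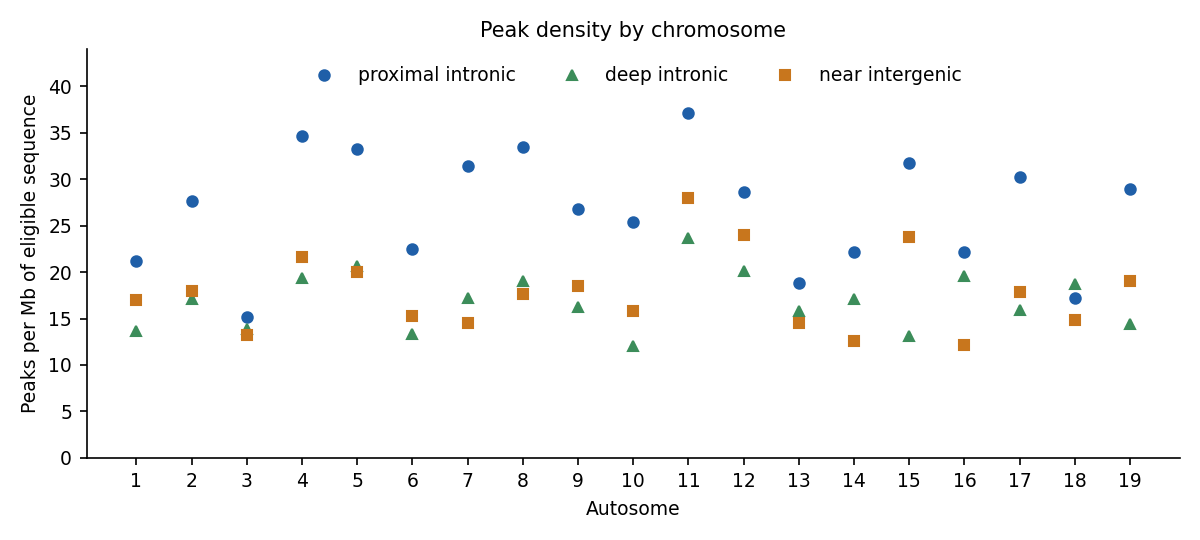
Peaks per Mb of eligible sequence on each of the 19 autosomes for proximal intronic peaks (circles), deep intronic peaks (triangles) and near intergenic peaks (squares). The circles run from 15.2 to 37.1 per Mb and lie above the squares on every autosome and above the triangles on 18 of 19.

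The density fell with distance from the start, and most of the fall took place within 5 kb. Proximal intronic peaks had a density of 66.9 per Mb (63.8 to 70.2) at 1 to 2 kb, 34.0 at 2 to 5 kb and 25.3 at 5 to 10 kb. From there on it was nearly level, with 23.9 per Mb (23.1 to 24.8) at 10 to 20 kb and 23.4 per Mb (22.8 to 24.1) at 20 to 50 kb. The nearest bin was 2.86 times as dense as the farthest (2.70 to 3.02), and intergenic peaks fell by a ratio of 2.91 (2.67 to 3.17), so that the intervals of the 2 ratios overlap. In each of the 5 bins, however, intronic sequence was the denser of the pair, with 66.9 against 42.4 per Mb in the nearest and 23.4 against 14.6 per Mb in the farthest. The lower limit of 1 kb falls where the density drops steeply, and the upper limit of 50 kb where it is nearly level. Intronic peaks numbered 157.5 per Mb at 0.5 to 1 kb and 77.3 per Mb at 1 to 1.5 kb, and 22.1 per Mb at 40 to 50 kb and 21.5 per Mb at 50 to 60 kb.

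The fall with distance was seen where the start itself was accessible. Of 39515 protein-coding starts, 22120 (56.0%) had a peak centre within 1 kb. Among proximal intronic peaks, 10110 (71.1%, 70.4 to 71.9%) had such a start as their nearest, whereas these starts were nearest to 57.4% of the eligible sequence. The density was 33.8 per Mb near accessible starts and 18.5 per Mb near the others, a ratio of 1.83 (1.77 to 1.90), and on all 19 autosomes the ratio was above 1 (1.01 to 2.37). For deep intronic peaks the same ratio was 1.34 (1.27 to 1.42), and for near intergenic peaks 2.12 (2.02 to 2.22).

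Near accessible starts, the density dropped from 117.1 per Mb (111.1 to 123.3) at 1 to 2 kb to 47.4 at 2 to 5 kb and 26.6 (25.7 to 27.5) at 20 to 50 kb. Near starts without a peak it stayed between 17.7 and 19.3 per Mb in all 5 bins, with intervals that overlap. The ratio between the 2 kinds of start was 6.09 (5.32 to 7.00) at 1 to 2 kb and still 1.43 (1.35 to 1.52) at 20 to 50 kb. Peaks close to a start also lay closer to another peak. At 1 to 2 kb, 46.3% of proximal intronic peaks (43.9 to 48.7%) had another peak centre within 1 kb, against 18.1% (17.0 to 19.2%) at 20 to 50 kb. That neighbour could be a peak of any class. By the distance limits it could be a promoter peak at 1 to 2 kb but not at 20 to 50 kb. The contrast is therefore partly set by the bins. The share of neighbouring peaks that belong to 1 broad accessible stretch cannot be read from a list of fixed widths.

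**Figure D3:**
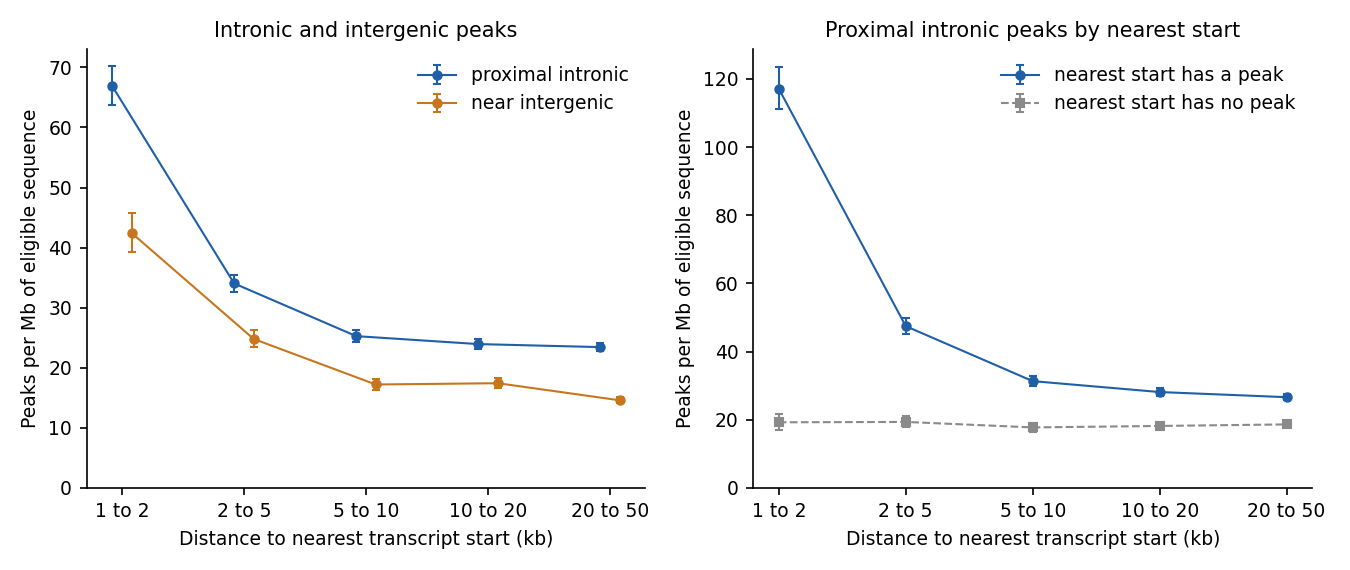
Left, peaks per Mb of eligible sequence in 5 bins of distance (kb) to the nearest protein-coding transcript start for proximal intronic and near intergenic peaks; right, proximal intronic peaks split by whether that start had a peak. Bars are 95% exact Poisson intervals. Near starts with a peak the density falls from 117.1 to 26.6 per Mb, and near the others it stays between 17.7 and 19.3.

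The nearest start was not always the main start of the gene that holds the peak. For 4239 peaks (29.8%) it was the outer start of the host gene, for 7079 (49.8%) an internal start of the host and for 2898 (20.4%) a start of another gene. Outer starts had a peak most often, for 80.4% of their proximal intronic peaks, against 67.3% for internal starts and 67.0% for starts of other genes. The share of eligible sequence nearest to each kind of start was not counted, nor the share of all such starts with a peak. Whether these values differ from those of the annotation was therefore not tested. Of all proximal intronic peaks, 574 lay in the bodies of 2 or more overlapping genes, where the host cannot be told.

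Starts outside the set used by the rule also lay near some of these peaks. Centres of 2471 peaks (17.4%) were within 1 kb of a start of a long noncoding RNA gene, of a noncoding or non-basic transcript of a protein-coding gene, or of a RefSeq mRNA, although such stretches made up 7.90% of the eligible sequence. Their density was 60.0 per Mb, 2.45 times (2.35 to 2.56) that of the remaining eligible introns. RefSeq curated mRNA starts gave the highest density, 148.3 per Mb with 210 peaks. These 2471 peaks had a mean G and C content of 53.7% ± 6.89 (SD), and the other 11745 had 49.8% ± 5.67.

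The first intron of a gene held 5976 of the peaks (42.0%, 41.2 to 42.9%), counting the first intron of any protein-coding transcript. First introns were 38.5% of the eligible sequence, and the density in them was 29.8 per Mb against 25.7 in other introns, a ratio of 1.16 (1.12 to 1.196). Within bins of distance this excess was not seen throughout. The ratio was 1.07 (0.961 to 1.199) at 1 to 2 kb, 0.946 (0.869 to 1.03) at 2 to 5 kb, 0.894 (0.821 to 0.974) at 5 to 10 kb, 1.00 (0.928 to 1.08) at 10 to 20 kb and 1.05 (0.983 to 1.11) at 20 to 50 kb. In the longest transcript of each gene, intron 1 had 29.5 peaks per Mb, intron 2 had 26.6, intron 3 had 23.6 and later introns had 26.8.

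Proximal intronic peaks were gathered in part of the genes. Of the 5899 genes with at least 1, 3049 held exactly 1, 724 held 5 or more and 182 held 10 or more. Genes with a peak at a start held one in 41.2% of 11324 cases, and those without in 16.3% of 7533. The former also had more eligible sequence, with a median of 22.3 kb against 9.21 kb. Within genes of 20 to 50 kb of eligible sequence, the shares were 45.0 and 26.0%, and within those of over 100 kb they were 85.6 and 74.1%. Across all proximal intronic peaks, 60.6% (59.8 to 61.4%) had another peak of any class within 5 kb, against 37.8% (36.6 to 39.0%) of deep intronic and 52.0% (50.9 to 53.1%) of near intergenic peaks. Deep intronic peaks lie more than 50 kb from a start, so that no promoter peak can be within 5 kb of them. The difference from them is therefore partly set by the rule, whereas near intergenic peaks have the same distance limits.

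The genes with the largest counts are given next, with those on chromosome 18 left out. *Abr* held 44 proximal intronic peaks, *Nrxn2* 35, *Mapt* 34, *2900026A02Rik* 32, *Cmip* 30, *Ralgps1* 28, *Lingo1* 27 and *Kif1a* and *Rap1gap* 26 each, the last 2 being tied for the tenth place. *Abr* encodes a regulator of small GTPases, *Nrxn2* a presynaptic adhesion protein, *Mapt* the microtubule-associated protein tau, *Lingo1* a neuronal membrane protein and *Kif1a* a motor that carries synaptic vesicle precursors along axons. The largest counts, 189 for *Gm20388* and 45 for *Fgfr2*, belong to annotated bodies of 4435 and 2961 kb that span many other genes. Proximal intronic peaks were also counted by the gene that owns the nearest start, whether or not they lie in its body. By that count *Gm20388* had only 6, *Fgfr2* 1 and *Ralgps1* 5. *Mapt* and *Lingo1* had 34 and 27, the same numbers as in their bodies, and *Nrxn2* had 31.

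*Mapt*, on chromosome 11 from 104231390 to 104332090, had 3.74 proximal intronic peaks per 10 kb of its 90.8 kb of eligible sequence. *Kif1a* had 3.46 per 10 kb and *Nrxn2* 3.24 per 10 kb. In short genes the density went higher. Among genes with 5 or more, *Mfap2* had 14.9 per 10 kb with 5 peaks in 3.35 kb of eligible sequence. It was followed by *Calm3*, one of the calmodulin genes, with 10.5, *Pcif1* with 9.48, *Sncb*, which encodes beta-synuclein, with 9.42, and *Dgat1*, which encodes an enzyme of triglyceride synthesis, with 9.40. In these short genes the sequence 1 kb or more from a start is small, and so a few peaks make a high density. *Sncb* held its 5 peaks in 5.31 kb of eligible sequence.

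At the other end, the 5 genes with the most eligible sequence and no proximal intronic peak were *Zfp697* (331.3 kb), *Baz2b* (253.2 kb), *Lrp1b* (221.6 kb), *Mgat4c* (207.7 kb) and *Gtdc1* (206.1 kb). All 5 had a peak at a start. *Lrp1b*, a receptor gene of over 2 Mb, held 4 peaks deeper in its introns and *Gtdc1* held 2.

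Among lists of neuronal genes, those of voltage-gated channels held the most peaks. All genes of the channel, synaptic adhesion and receptor lists had a peak at a start, and their median eligible sequence was 81.4, 65.0 and 49.0 kb. Over all genes with a peak at a start, 45.0% held a proximal intronic peak at 20 to 50 kb of eligible sequence, 63.7% at 50 to 100 kb and 85.6% above 100 kb, and the shares of the lists are to be read against these. Of 21 channel genes, 16 held 1 or more, with 59.7 per Mb of eligible sequence and a median of 5 per gene. *Kcnma1*, which encodes the large-conductance calcium-activated potassium channel, held 24, and *Cacna1a*, which encodes the P/Q-type calcium channel, held 17. The sodium channel gene *Scn1a*, with 153.7 kb of eligible sequence, held none, *Scn2a* held 2 and *Scn8a* held 7.

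Synaptic adhesion genes held them in 18 of 21 cases, at 45.0 per Mb and a median of 3. *Nrxn2* with 35, *Nrxn3* with 13 and *Ptprs* with 12 led this list. *Dscam* held 6 in its 49.0 kb of eligible sequence and 57 deeper peaks. Activity and signalling genes held them in 14 of 22 cases (63.6%) at 34.1 per Mb, with a median eligible sequence of 55.04 kb and a peak at a start of 20 genes, which is at the 63.7% of all genes with a peak at a start and 50 to 100 kb. They were led by *Camta1* with 21, *Pde4d* with 15 and *Prkca* with 11. Transmitter receptor genes were near the level of all genes per Mb, at 29.8, although 17 of 24 held at least 1. *Gabbr2* held 8, *Chrna4* held 7 and *Gabbr1* held 6, and the GABA-A receptor genes *Gabra2* and *Gabrb2* held none.

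Lists of genes of other cells and of constitutive genes ranged from 11.3 to 39.9 per Mb, on both sides of the 27.3 per Mb of all genes. The share of their genes with a proximal intronic peak was 20.0 to 33.3%, near the 31.3% of all genes. Oligodendrocyte genes held 3 peaks in 3 of 9 genes (11.3 per Mb), namely *Mag*, *Pdgfra* and *Ugt8a*, and microglia genes held 5 in 3 of 10 (16.8 per Mb), among them *Cx3cr1* and *Spi1* with 2 each. Both peaks in *Cx3cr1*, whose annotated body has 128.9 kb of eligible sequence, were nearest to a start of another gene. Astrocyte genes held 12 in 2 of 10 genes, 7 in *Slc1a2* and 5 in *Aldh1l1*, which comes to 39.9 per Mb. Genes of other organs held 13 in 7 of 24 genes (21.6 per Mb), with 4 in *Tg* and 3 in *Hnf4a*. Constitutive genes held 5 in 4 of 16 genes, *Gapdh*, *Actb*, *Gusb* and *Ywhaz*, although 14 of the 16 had a peak at a start. They had only 0.127 Mb of eligible sequence in all, which gives 39.3 per Mb. Over all genes with a peak at a start and 2 to 5 kb of eligible sequence, the median of this list being 3.72 kb, 23.9% held a proximal intronic peak, at 101.7 per Mb. These are counts in lists of unequal gene size, and no test of the lists was made.

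In base composition, proximal intronic peaks stood between deep intronic and promoter peaks. Their mean G and C content was 50.5% ± 6.08 (SD, n = 14216), against 47.1% ± 5.81 in deep intronic, 49.9% ± 6.24 in near intergenic and 61.9% ± 8.39 in promoter peaks. In 24358 windows of 500 bp that lie 2 kb from these peaks and overlap no peak, it was 47.2% ± 6.29, a difference of 3.27 percentage points. For the 13784 peaks that have such a window, 9426 (68.4%) were richer in G and C than their own windows. The spread between peaks is wider than the difference. Repeats covered 13.2% of the average peak and 22.8% of the average window.

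The excess of G and C was narrow. It reached 53.1% in the 50 bp beside the centre and was down to 48.8% at 975 bp, whereas promoter peaks went from 65.5% at the centre to 49.0% over the same distance. Proximal intronic peaks were poor in CpG, with a median observed to expected ratio of 0.231 against 0.756 in promoter peaks. Deep intronic and near intergenic peaks were also low, at 0.225 and 0.260, and the windows 2 kb away had 0.197. Only 416 (2.93%, 2.65 to 3.22%) were CpG-rich, here meaning over 55% G and C and a ratio over 0.6, against 65.9% of promoter peaks. The share was 1.18% of deep intronic peaks, 5.60% of near intergenic peaks and 0.513% of the windows. Mean G and C content fell with distance from 52.7% ± 7.08 at 1 to 2 kb to 49.2% ± 5.68 at 20 to 50 kb.

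**Figure D4:**
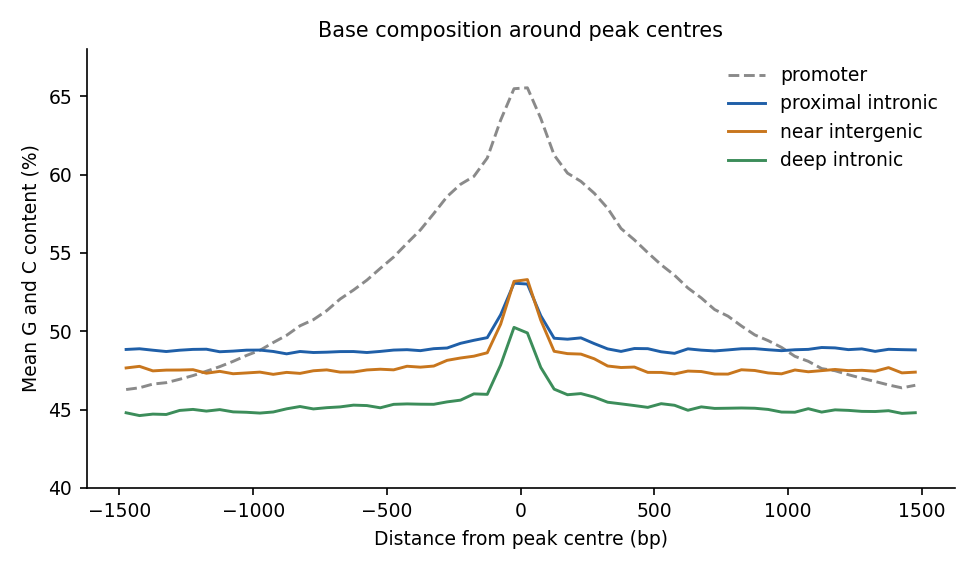
Mean G and C content (%) in 50-bp bins by distance (bp) from the peak centre, for promoter peaks (dashed) and for proximal intronic, near intergenic and deep intronic peaks (solid). The axis starts at 40%. Proximal intronic peaks rise from 48.8 to 53.1% at the centre, and promoter peaks reach 65.5%.

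To describe their sequence further, 20 short motifs were looked for in the peaks and in the same windows 2 kb away, reading both strands. A match is a description and not a bound site. The motifs were TGANTCA for AP-1, TGACGTCA for CREB, CAGATGG for the *Neurod* E-box and CAGCTG for the *Ascl* E-box, then TGTTTAC for forkhead factors, AAAGGTCA for Nr4a and GTTGCCA for Rfx. For homeodomain and related factors they were TAATTA for Lim homeodomain, TAATCC for Otx and Pitx, and ATTTGCAT for Pou. The others were CCATTGTT for Sox, AGATAAG for Gata, TCCCNNGGGA for Ebf, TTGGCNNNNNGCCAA for Nfi, CCGGAAGT for Ets, GGGGCGGGG for Sp and Klf, GCGTGGGCG for Egr and AAGATGGCG for Yy1, with Mef2 and Ctcf by their usual consensus. The *Neurod* word can fall inside a Ctcf match. At least 1 motif was found in 10940 proximal intronic peaks (77.0%) and in 70.0% of the windows, with a median of 1 motif per peak.

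The Ctcf motif differed most. It was found in 875 proximal intronic peaks (6.16%, 5.77 to 6.56%) and in 0.357% (0.286 to 0.440%) of windows, a ratio of 17.2, and 95.9% of the peaks with it had a match in the central 200 bp. Deep intronic peaks had it in 4.55% (4.05 to 5.11%), near intergenic peaks in 11.8% and promoter peaks in 1.26%. Its share was 3.83% within 5 kb of a start and 6.88% beyond 20 kb. Of 863 matches in peaks whose host genes have a single strand, 411 lay on the strand of the gene and 452 on the other, and the share of 47.6% has an interval of 44.2 to 51.0%, which includes 50%. The Ctcf word read backwards was in 0.0352% of proximal intronic peaks.

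Other motifs were above the windows by less. Sp and Klf was in 3.44% (3.15 to 3.75%) of proximal intronic peaks against 1.60% (1.45 to 1.77%) of windows, a ratio of 2.15. Egr was in only 25 peaks, 0.176% (0.114 to 0.259%) against 0.0534% (0.0284 to 0.0912%), a ratio of 3.30, but the same word read backwards had a ratio of 3.67. The Sp and Klf word is its own reversal, so that it has no such control. The *Ascl* E-box, the word of proneural bHLH factors, was in 33.5% (32.7 to 34.3%) of proximal intronic peaks and 24.9% of windows. The Rfx motif was in 8.17% (7.73 to 8.64%) against 4.95%, the forkhead motif in 8.34% (7.89 to 8.81%) against 6.14%, and the Nr4a motif in 4.54% (4.20 to 4.89%) against 2.49%. Mef2 stood at 1.26% against 0.645% and CREB at 0.879% against 0.308%. For all of these the intervals of peaks and windows do not overlap. Nfi was in only 12 peaks and 4 windows, and its ratio of 5.14 ranged from 1.93 with windows at 5 kb to 13.2 with an upper distance limit of 20 kb.

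The *Neurod* E-box was in 14.1% (13.5 to 14.7%) against 12.8% (12.4 to 13.2%) of windows, and AP-1, the word of Fos and Jun dimers, in 14.2% (13.6 to 14.8%) against 13.6% (13.1 to 14.0%), where the intervals overlap. When only the central 200 bp of peaks and windows were read, the ratio was 1.22 for AP-1, 39.9 for Ctcf, 5.85 for CREB and 0.499 for Lim homeodomain, against 1.05, 17.2, 2.86 and 0.735 over the whole 500 bp. For the rare Egr and Nfi motifs it went the other way, to 2.06 and 4.28 from 3.30 and 5.14. Some AT-rich words were below the windows. Lim homeodomain was in 7.81% against 10.6% and Otx and Pitx in 16.2% against 18.2%. Gata, at 5.55% against 6.10%, and Sox, at 1.51% against 1.84%, were lower with intervals that overlap. Read backwards, the Lim homeodomain and the Otx and Pitx words were also below, at ratios of 0.716 and 0.891. Pou, at 2.40% against 2.37%, did not differ beyond counting error. In all, 16 of the 20 motifs had a higher share in peaks than in windows, and for 15 the ratio was above that of the same motif read backwards. The other 5 were Egr, Ebf, Sox, Otx and Pitx, and Sp and Klf. Reading a word backwards keeps its letters but not always its CpG. The *Ascl* E-box and Rfx words gain a CpG when reversed and the CREB word loses one, so that the backward word is not a matched control for them.

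Against deep intronic peaks, the forkhead motif (8.34 against 11.1%), the Nr4a motif (4.54 against 6.37%), AP-1 (14.2 against 16.3%), Lim homeodomain (7.81 against 11.3%) and Pou (2.40 against 4.16%) were less frequent, with intervals that do not overlap. Ctcf and Sp and Klf were more frequent, the latter at 3.44% (3.15 to 3.75%) against 2.04% (1.70 to 2.43%). Promoter peaks had the Sp and Klf motif in 23.4%, Ets in 6.79% and Yy1 in 3.49%, and proximal intronic peaks in 3.44, 0.577 and 0.380%. With distance, the Sp and Klf share fell from 5.76% within 5 kb of a start to 2.00% beyond 20 kb, while the Nr4a share went from 3.29 to 5.24% and the forkhead share from 6.87 to 9.62%. Mean G and C content differed between the same classes and fell over the same distances, and its part in these shares was not tested.

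**Figure D5:**
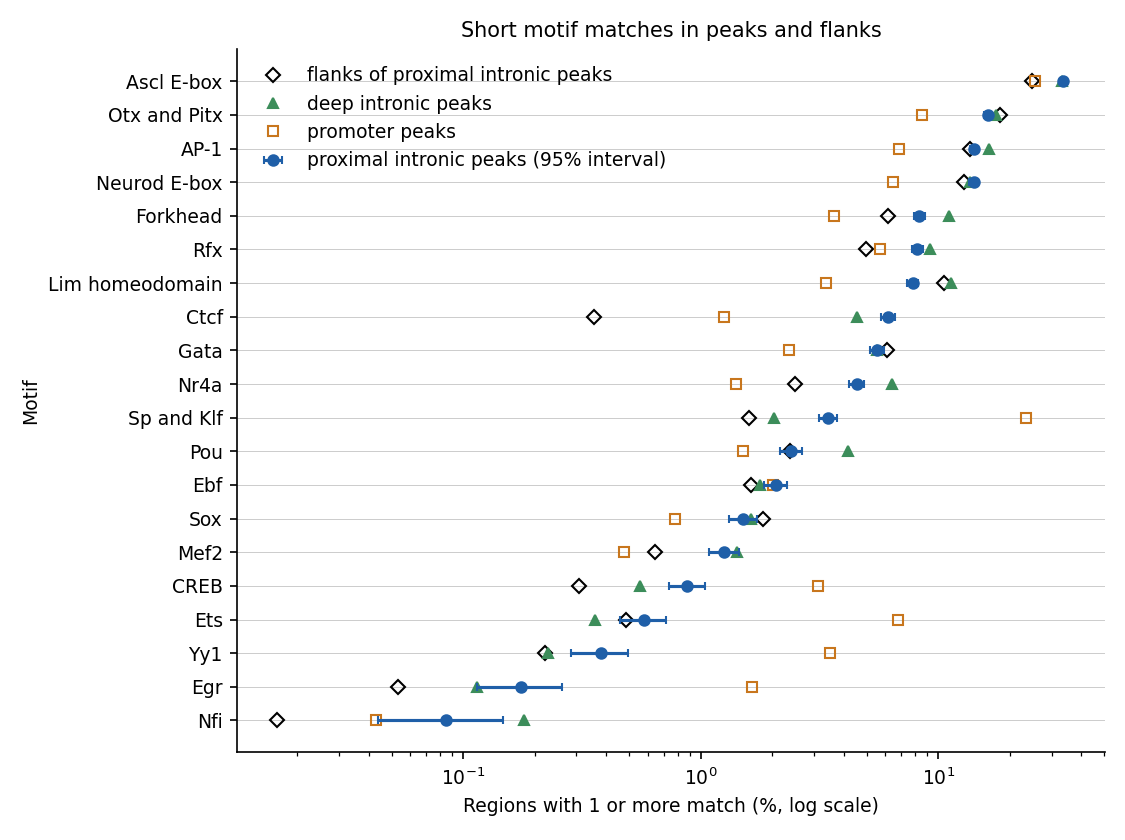
Share (%, log scale) of proximal intronic peaks (circles with 95% exact binomial intervals), of windows 2 kb away (diamonds), of deep intronic peaks (triangles) and of promoter peaks (squares) with 1 or more match to each of 20 motifs. The Ctcf share of 6.16% stands 17.2 times above the windows, while Sp and Klf reaches 23.4% in promoter peaks.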

How the data were processed

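The authors mapped snATAC-seq reads of both VTA libraries to mm10 with cellranger-atac 1.2.0, removed doublets and low-quality nuclei and clustered the rest with ArchR 0.9.1, and called peaks of the DN cluster on pseudobulk replicates by merging overlapping calls iteratively. In the deposited list, a peak has a start and an end position and no other value, each being 500 bp wide when starts are read as counted from 0. If they count from 1, printed positions are off by 1 bp. No depth per sample can be given from it.

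Peaks were placed by their centre, in order of priority within 1 kb of a protein-coding start, in an exon of any gene, in a protein-coding gene body, or outside, with GENCODE M21 (basic). Eligible sequence was counted base by base under the same rule. Sequence, repeats and motif matches came from GRCm38.p6 (RefSeq). Shares have 95% exact binomial intervals, densities exact Poisson intervals, and ratios of densities exact conditional intervals. Genes and gene lists were given a peak when their body held its centre. Symbols were matched by name. Named genes were the 10 with the most such peaks (11 with a tie for the last place), the 5 densest with 5 or more, all genes of the dopamine phenotype and transcription factor lists, the leading 3 of other lists and the 5 with most eligible sequence and none. A few further list genes without or with few peaks, and the reference to glial markers, were chosen after their values were seen. Genes of chromosome 18 are not named. A few other genes that the rule would name are not reported here and are counted in the list totals only.

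The regions and lists were chosen with earlier results of these data known. The classification, ratios and motif search were tested on simulated data with planted values. Python 3.11.15 was used with scipy 1.17.1 for intervals, pandas 2.3.3 and numpy 2.4.6 for tables, and matplotlib 3.10.9 for plots.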

Additional observations from a re-analysis of the deposited data

How the results depend on the processing

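The number of proximal intronic peaks was 14213 with starts read as counted from 1, 14440 with exons of protein-coding genes only and 9214 with an upper limit of 20 kb. That upper limit gave a density ratio to deep introns of 1.79, 49.5% in first introns, 72.6% at accessible starts and a G and C difference of 3.47 points. With a lower limit of 2 kb these values were 1.51, 37.8%, 69.2% and 2.93 points, and the nearest bin was 1.45 times as dense as the farthest. With peaks that overlap no exon at all, the ratio to deep introns was 1.45, the fall with distance 2.61, the first intron share 47.5% and the G and C difference 2.98 points. Eligible sequence was still counted by the centre rule in this setting. The ratio to deep introns and the fall with distance are therefore not like for like with the main values. A peak within 500 bp of a start as the criterion gave 67.3% at accessible starts. Windows at 5 kb gave a G and C difference of 3.51 points. Chosen after seeing the data, windows that themselves meet the positional rule gave 3.74 points, and intron 1 of the longest transcript held 34.6%. The Pou ratio to windows reversed, to 0.978 with windows at 5 kb and 0.947 with windows that meet the rule. Of 180 alternative values for single motifs, 151 stayed within the counting interval and 27 moved beyond it in the same direction. Leaving out a replicate was not possible with this list. No paired analysis was possible because the 2 libraries are pooled in the 1 list used here, and separate data of each library were not analysed here. Depth and the calling threshold are not in the list, so weak accessibility is not covered.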
